A study of Mus musculus with 8 samples.

Results

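The clustered protocadherins are cell-surface adhesion proteins of the cadherin superfamily, encoded in 3 gene clusters (alpha, beta and gamma) that lie side by side on mouse chromosome 18. The genes described here were all those in the authors' normalized table whose symbol starts with Pcdha, Pcdhac, Pcdhb, Pcdhga, Pcdhgb or Pcdhgc followed by a digit. There were 52 of them among 21369 genes in that table and 48823 in the count files: 10 alpha, 22 beta and 20 gamma genes. The series measured RNA of mouse utricles, the inner ear organs that sense gravity and linear acceleration, at embryonic day E15.5. The 4 libraries of each genotype were compared to ask how a mutation of Rest, the gene of a repressor of neuronal genes, changes the transcriptome of the utricle.

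The mutant libraries carried the genotype label Rest(+/deltaExon4), a heterozygous deletion of exon 4, although their titles read KO, and the other 4 libraries were wild type. The labels give the strain C57BL/6 for all libraries but wild-type replicate 4, whose strain and age labels read C57BL/7 and E15.6. Each library was made from RNA pooled from 7 to 9 mice, so no library measures 1 animal. The labels name no separate collection for the pools, and the p-values below therefore measure the spread between these libraries, which may in part be technical.

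In neurons each cell expresses a few clustered protocadherins, chosen promoter by promoter, and the resulting combination acts as a surface identity code: matching combinations bind each other in trans, and in many neurons this contact leads branches of the same cell to avoid one another. In the alpha and gamma clusters each gene has its own variable first exon, which encodes the extracellular cadherin repeats, the transmembrane segment and a short cytoplasmic stretch, and is spliced to constant exons common to the whole cluster. Beta genes consist of a single coding exon with no constant part. CTCF and cohesin join the chosen promoters to distant enhancers, Smchd1 and DNA methylation keep others silent, REST binds at an enhancer of the alpha cluster, and the C-type genes at the 3' end of the alpha and gamma clusters are expressed less randomly than the others. Gamma protocadherins are also known for their part in the survival of neurons.

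The shared exons set what a count of these genes means. In the GENCODE M21 annotation of GRCm38 the alpha cluster spans positions 36930184 to 37187661 of chromosome 18, the beta cluster 37264938 to 37524479 and the gamma cluster 37661793 to 37841873. Exon bases found in no other gene made up a median of 46.4% of an alpha gene (35.1% to 51.4%), 54.8% of a gamma gene (26.4% to 68.5%) and 100% of a beta gene. A read pair in a constant exon overlaps many genes and is counted for none, so alpha and gamma counts come from exon bases that belong to 1 gene alone, and reads in the constant exons cannot be assigned to any gene. The variable first exon holds 100% of them in alpha and 96.0% in gamma genes, and Pcdhgb4 has the most outside it, with 3588 unshared bases of which 2549 are in the first exon. Identical stretches were few. Windows of 126 bases (1 read length) were compared among the first exons of the 52 genes, counting exact matches only. A median of 2.08% of windows in alpha genes and 0% in beta and gamma genes recurred, with 7.37% in Pcdhgb1 the highest. Near-identical stretches were not counted. Genes on the opposite strand also removed reads, because the unstranded column discards a pair that overlaps exons of both. Pcdhb12 has 36.5% of its exon bases in no other gene, the rest lying under the antisense gene Gm37446. Pcdhgc3 has 33.1%, since the antisense gene BC037039 covers part of its exons that is not constant.

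**Figure D1:**
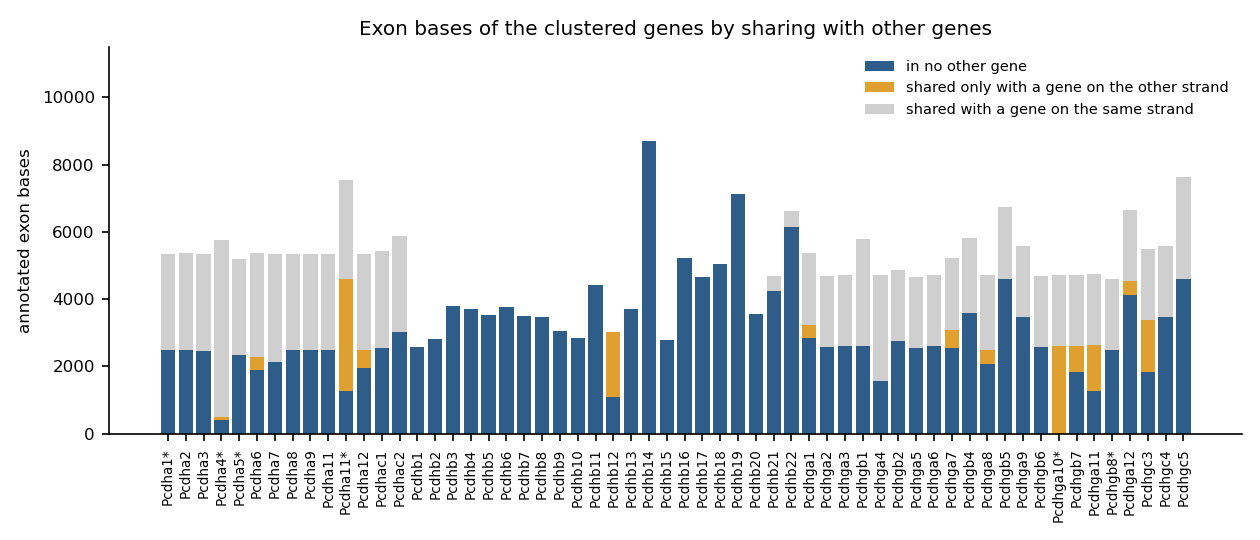
Annotated exon bases (y axis, bases) of the 58 clustered protocadherin genes in chromosome order, split into bases in no other gene, bases shared only with a gene on the other strand, and bases shared with a gene on the same strand; an asterisk marks the 6 genes outside the normalized table. Alpha and gamma genes share the large grey part, most beta genes share nothing, and Pcdhga10 has 0 unshared bases.

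The annotation holds 6 further clustered genes that the normalized table does not list: Pcdha1, Pcdha4, Pcdha5, a second gene named Pcdha11, Pcdhga10 and Pcdhgb8. All but Pcdha5, with 4 read pairs in wild-type replicate 3, were at 0 in the unstranded counts of all 8 libraries. Pcdhga10 has 0 unshared exon bases, and its variable exon lies under the antisense gene Gm26672. When the counts of the 2 strands were summed, which keeps pairs lost to an opposite-strand gene but counts them for both genes, Pcdhga10 had 45, 50, 15 and 84 read pairs in the heterozygous libraries and 36, 43, 46 and 40 in the wild-type ones. Pairs of this kind may come from either strand.

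The 8 libraries held 20365225 to 24557189 read pairs on genes, of which 2331 to 3243 fell on the 52 clustered genes (0.0105% to 0.0136%). Levels below are read pairs per 1000000 (CPM), with library sizes scaled by TMM. Rest itself stood at 131.7, 124.6, 125.7 and 125.8 CPM in the heterozygous and at 121.6, 115.9, 122.0 and 106.2 CPM in the wild-type libraries (log2 difference 0.12, adjusted p = 0.456, edgeR quasi-likelihood test), all heterozygous values lying above the wild-type ones. A count over the whole gene does not test for the loss of 1 exon. Hair cell, supporting cell and neuron markers were all detected. Wild-type replicate 4 stood apart in its red blood cell markers, which summed to 4359 CPM there and to between 370 and 565 CPM elsewhere.

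Beta and gamma genes were present in utricle RNA at low levels, and alpha genes were close to the limit of detection. Over the 8 libraries together the alpha genes held 345 read pairs, the beta genes 10232 and the gamma genes 12073. Per kilobase of unshared exon, the scale used here to compare genes, the median level was 0.0607 CPM per kb for alpha, 0.430 for beta and 0.905 for gamma genes. In alpha and gamma genes these bases lie mostly in the first exon, upstream of constant exons that beta genes lack. The cDNA was primed with oligo-dT, so distance to the 3' end may affect levels differently by cluster, which was not tested. Read pairs were seen in every library for 2 of 10 alpha genes, 20 of 22 beta genes and all 20 gamma genes. Across the 52 genes genes farther along the chromosome had higher levels per kilobase (Spearman's rho 0.72 over genes that share libraries and, in part, reads), and within a cluster rho was 0.53 for alpha, 0.45 for beta and 0.24 for gamma genes.

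**Figure D2:**
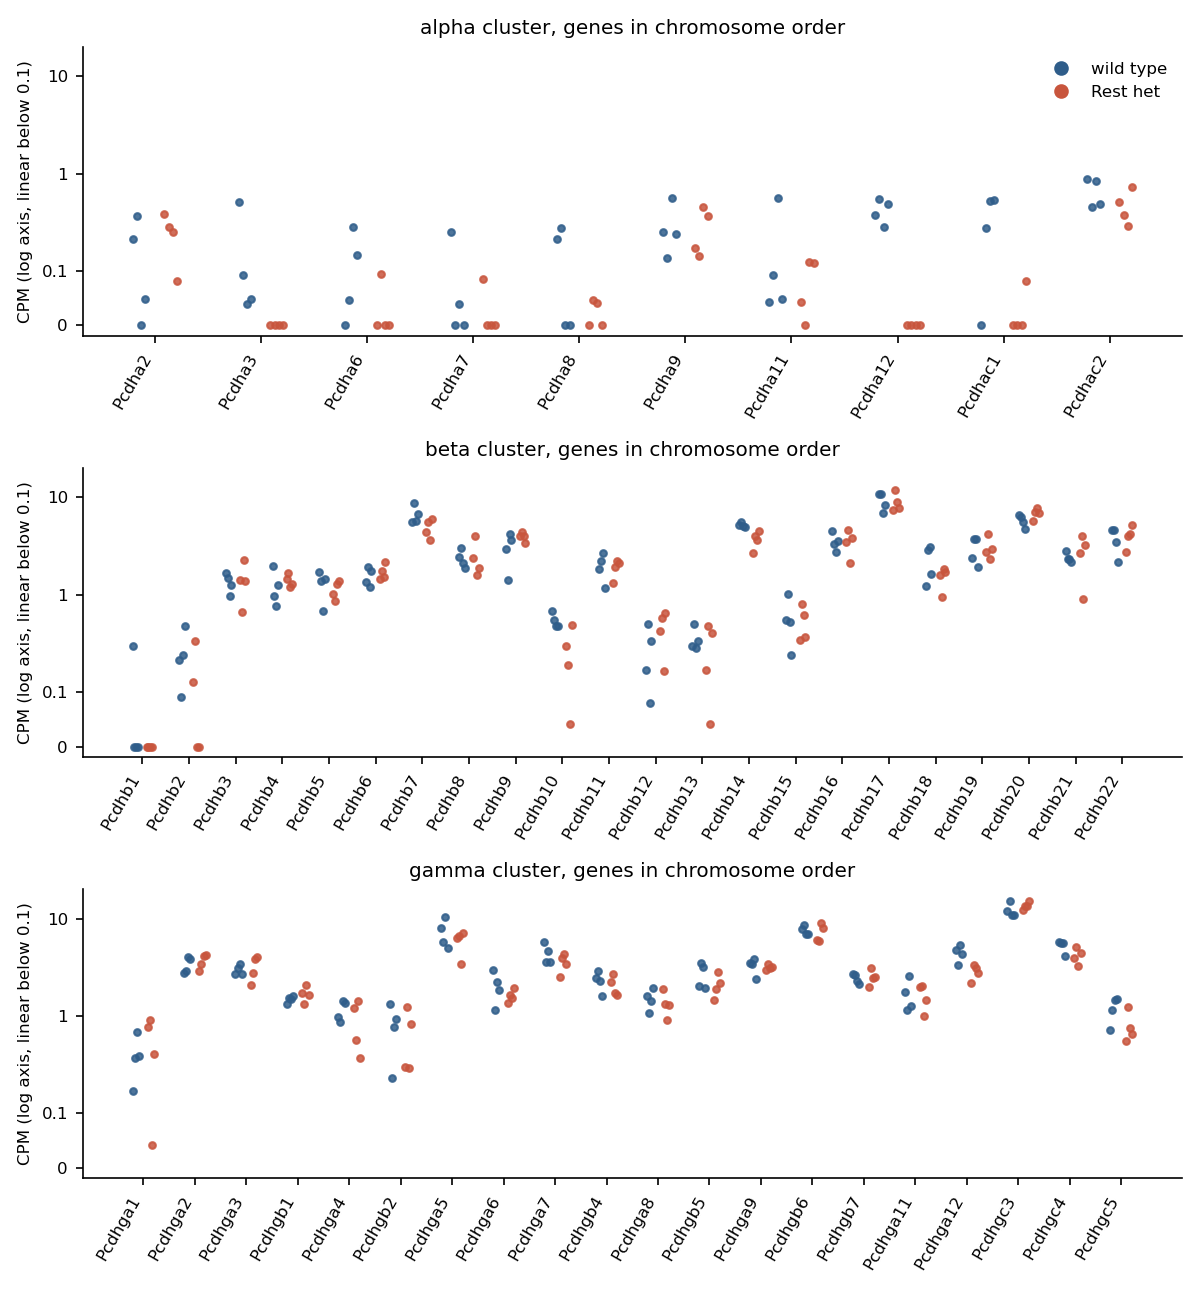
Level of each of the 52 genes (y axis, CPM, logarithmic above 0.1 and linear below) in the 4 wild-type (blue) and 4 heterozygous (red) libraries, with genes in chromosome order in 3 panels. Alpha genes stay under 1 CPM with many points at 0, Pcdhgc3 stands highest, and the colours overlap in nearly all beta and gamma genes.

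The highest level per kilobase was that of Pcdhgc3, a C-type gamma gene. It was at 12.2, 13.5, 13.3 and 15.2 CPM in the heterozygous and at 11.9, 15.1, 10.96 and 10.96 CPM in the wild-type libraries, or 7.08 CPM per kb on average. The groups overlapped, with a log2 difference of 0.15 ± 0.14 (SE, n = 4 and 4) and an adjusted p of 0.670 in edgeR's quasi-likelihood test over 16990 genes. With strands summed its read number was 2.58 times as large, the largest such ratio beside 2.47 for Pcdhb12 and 2.45 for Pcdhga11. The other C-type gamma genes were lower per kilobase, at 1.36 CPM per kb for Pcdhgc4 and 0.218 for Pcdhgc5. Pcdhgc4, the gamma isoform known to be needed for neuron survival, was at 3.94, 5.11, 3.26 and 4.42 CPM in the heterozygous and at 5.74, 5.54, 5.58 and 4.12 CPM in the wild-type libraries. Its groups overlapped through wild-type replicate 4 (log2 difference -0.33 ± 0.19, SE, n = 4 and 4, adjusted p = 0.492 by edgeR). Pcdhgc5 was at 0.557, 1.24, 0.751 and 0.655 CPM in the heterozygous and at 0.723, 1.15, 1.46 and 1.503 CPM in the wild-type libraries, again with overlap (log2 difference -0.60 ± 0.36, adjusted p = 0.508 by edgeR).

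Among the A- and B-type gamma genes, whose variable exons are the ones chosen at random in neurons, Pcdhgb6 and Pcdhga5 were the highest at 2.88 and 2.58 CPM per kb. Pcdhgb6 was at 6.00, 5.93, 8.93 and 8.02 CPM in the heterozygous and at 7.74, 8.54, 7.00 and 6.98 CPM in the wild-type libraries, with a log2 difference of -0.066 ± 0.17. Pcdhga5 varied more between libraries, from 3.42 to 7.08 CPM in the heterozygous and from 4.995 to 10.4 CPM in the wild-type ones (log2 difference -0.31 ± 0.28, adjusted p = 0.652 by edgeR). The largest change downward in the cluster was that of Pcdhga12. It was at 2.19, 3.30, 3.09 and 2.74 CPM in the heterozygous and at 4.76, 3.37, 5.30 and 4.32 CPM in the wild-type libraries, which did not overlap. Its log2 difference of -0.65 ± 0.21 had a p of 0.0113 before and 0.230 after adjustment over all genes (edgeR quasi-likelihood test). In the upward direction the largest value was that of Pcdhgb1, at 0.19 ± 0.25. Of the 19 gamma genes tested 14 had a log2 difference below 0, as did 50.5% of all genes tested, and the median was -0.16 beside -0.0027 over all genes tested. Pcdhga1 was too low to be tested, with 1 to 19 read pairs per library.

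The summed gamma level was 56.5, 66.1, 62.5 and 67.3 CPM in the heterozygous and 70.8, 68.0, 74.9 and 60.3 CPM in the wild-type libraries. The means, 63.1 ± 4.86 and 68.5 ± 6.12 CPM (SD, n = 4 each), overlapped in their spread and stood in a ratio of 0.921. By type, the A genes summed to 28.3 CPM in the heterozygous and 32.5 CPM in the wild-type libraries on average, the B genes to 16.3 and 17.3 CPM, and the C genes to 18.5 and 18.7 CPM. Each of these pairs overlapped.

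The summed level of the beta genes, which lack constant exons and share the least, overlapped between the genotypes. It was 48.1, 64.2, 50.4 and 57.9 CPM in the heterozygous and 59.99, 63.5, 53.1 and 50.7 CPM in the wild-type libraries, with means of 55.1 ± 7.37 and 56.8 ± 5.95 CPM (SD, n = 4 each) and a ratio of 0.970. Pcdhb17 was the highest beta gene at 1.96 CPM per kb, followed by Pcdhb20 at 1.79 and Pcdhb7 at 1.66. Pcdhb17 was at 7.42, 11.8, 8.89 and 7.81 CPM in the heterozygous and at 10.8, 10.8, 7.00 and 8.39 CPM in the wild-type libraries (log2 difference -0.045 ± 0.20). Pcdhb20 ranged from 5.70 to 7.81 CPM in the heterozygous and from 4.75 to 6.68 CPM in the wild-type libraries (0.25 ± 0.17, adjusted p = 0.543 by edgeR). Pcdhb7 ranged from 3.63 to 5.97 CPM and from 5.57 to 8.68 CPM in the same order (-0.44 ± 0.21, adjusted p = 0.397). All 3 overlapped between genotypes.

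The 19 beta genes tested were split nearly evenly, 9 below and 10 above 0, with a median log2 difference of 0.049. Pcdhb14 was the only one whose groups did not overlap, at 2.70, 4.01, 3.63 and 4.54 CPM in the heterozygous and 5.19, 5.63, 5.14 and 4.95 CPM in the wild-type libraries. Its log2 difference of -0.49 ± 0.19 had a p of 0.0265 before and 0.314 after adjustment (edgeR). The extremes were low genes with wide errors. Pcdhb10, at 1 to 16 read pairs per library, gave the lowest value (-1.08 ± 0.54, adjusted p = 0.416), and Pcdhb12, at 2 to 16 read pairs, the highest (0.74 ± 0.59, adjusted p = 0.613). Pcdhb1, Pcdhb2 and Pcdhb13 were too low to be tested, and the 7 read pairs of Pcdhb1 all came from wild-type replicate 1.

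**Figure D3:**
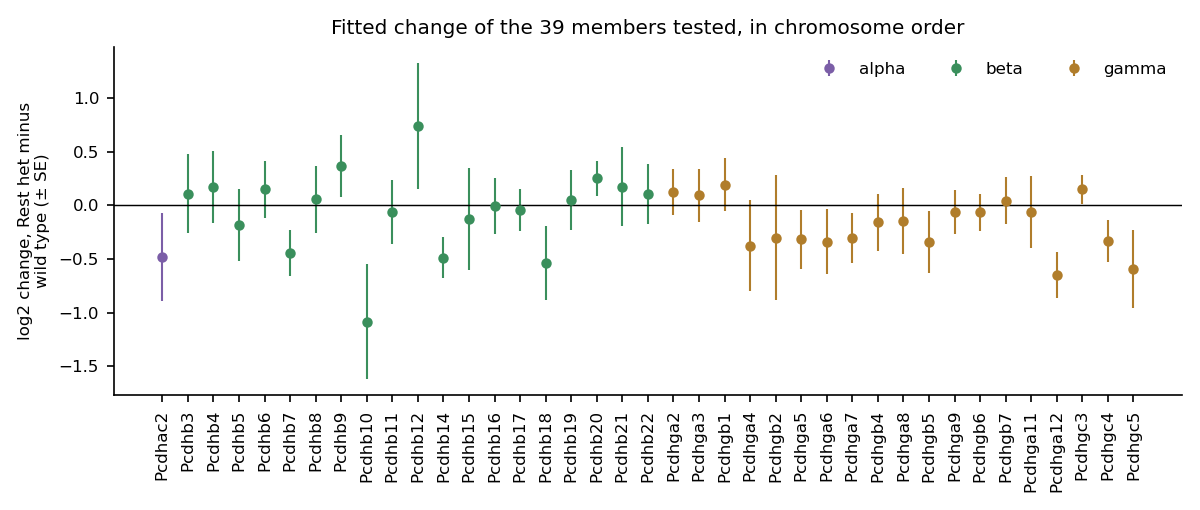
Fitted log2 difference, heterozygous minus wild type (y axis, with SE bars from edgeR's quasi-likelihood fit), of the 39 clustered genes tested, in chromosome order and coloured by cluster. Beta genes scatter to both sides of 0, 14 of 19 gamma genes lie below it, and no gene passed the threshold.

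In all, 39 of the 52 genes passed the filter on low counts and were tested: 1 alpha, 19 beta and 19 gamma genes. At an adjusted p under 0.05 none was called lower (0 of 39, with 1.02% of all genes tested) and none higher (0 of 39, with 0.147% of all genes tested). Before adjustment Pcdhb14 and Pcdhga12 had a p under 0.05, 5.13% of the 39 beside 13.4% of all genes tested, and DESeq2 likewise called 0 and gave 2 at an unadjusted p under 0.05. The same pair were the only ones tested whose groups did not overlap, both with lower heterozygous values, where 4.89% of all genes tested had such lower and 2.98% such higher groups. The clustered genes were also measured less precisely than most: the median SE of their log2 difference was 0.28 against 0.154 over all genes tested, and the median biological coefficient of variation 0.279 against 0.165.

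The summed level of the alpha genes was lower in the heterozygous libraries, and Pcdha12 was at 0 in all 4 of them. Their summed level was 1.20, 0.956, 1.17 and 1.39 CPM in the heterozygous and 2.76, 2.31, 3.15 and 2.04 CPM in the wild-type libraries, which did not overlap. Of all single genes tested, 4.89% had lower heterozygous groups without overlap. The alpha sums rest on 28, 20, 28 and 34 read pairs in the heterozygous and 65, 50, 78 and 42 read pairs in the wild-type libraries. The means were 1.18 ± 0.178 and 2.57 ± 0.494 CPM (SD, n = 4 each), 2.18 times as high in wild type, and leaving out any 1 library gave ratios from 2.01 to 2.33. No test was made of this sum, since the genes were chosen with results of these data known. Alpha genes held 0.997% of the read pairs on clustered genes in the heterozygous libraries and 2.001% in the wild-type ones, on average. In bulk tissue fewer cells that express a gene and less RNA per cell cannot be told apart.

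**Figure D4:**
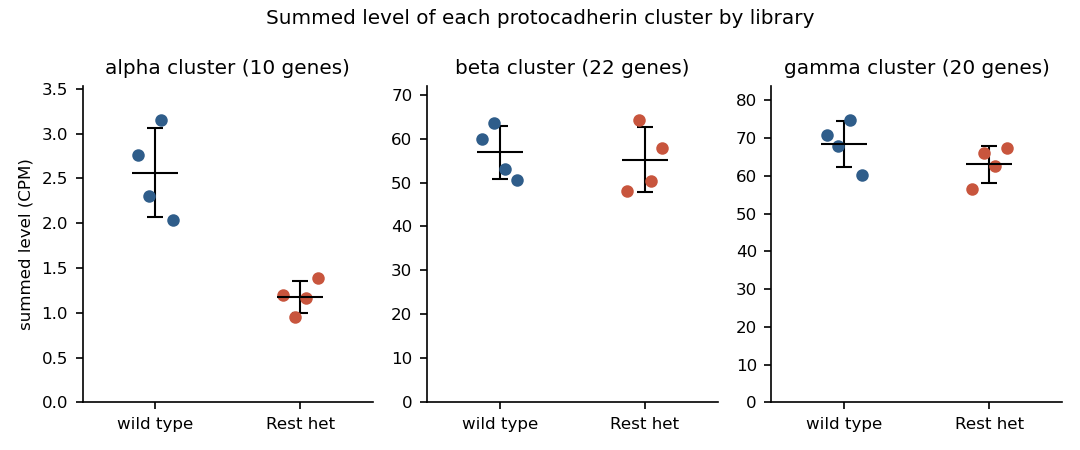
Summed level (y axis, CPM, starting at 0) of the alpha, beta and gamma genes in each library, with wild type in blue, heterozygous in red, and bars for the mean and SD of 4 libraries. The alpha sums do not overlap (0.956 to 1.39 against 2.04 to 3.15 CPM), while the beta and gamma sums do.

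Pcdha12, a variable alpha isoform, had 9, 12, 7 and 10 read pairs in the wild-type libraries and 0 in each heterozygous library. Against a floor of 3 counts over the heterozygous group, its pooled wild-type level was at least 13.0-fold higher, with the wild-type count taken as exact. The filter on low counts leaves it out of the test above. In the fit without that filter, over 31028 genes, it was called lower (adjusted p = 0.0153 by edgeR), where 0.541% of genes were called lower. Without the filter the call was kept with each library left out in turn (adjusted p from 0.0195 to 0.0497), with strands summed (0.00957) and in DESeq2 without independent filtering (0.0016), and was lost with the replicate number as a block (0.0544, edgeR). These further fits were added after the zeros of Pcdha12 were seen and reuse largely the same read pairs, so they are no separate support. Part of the variable exon of Pcdha12 lies under the antisense gene Gm10545, and reads there cannot be assigned to a strand. With strands summed, which keeps those reads, Pcdha12 had 10, 16, 8 and 13 read pairs in wild type and again 0 in each heterozygous library. Gm10545 itself had 19, 10, 6 and 4 read pairs with strands summed in wild type and 0 in each heterozygous library. A pair in the overlap is counted for both genes, so the pairs gained by Pcdha12 may come from either. The second gene named Pcdha11, also overlapped by Gm10545, had 18, 6, 6 and 2 read pairs with strands summed in wild type and 0, 2, 0 and 2 in the heterozygous libraries.

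The other alpha genes were sparse. Pcdhac2, a C-type gene and the highest alpha gene at 0.190 CPM per kb, had 12, 8, 7 and 18 read pairs in the heterozygous and 21, 10, 21 and 10 in the wild-type libraries. The groups overlapped (log2 difference -0.48 ± 0.41, adjusted p = 0.641 by edgeR). Pcdhac1, the other C-type alpha gene, had 0, 0, 0 and 2 read pairs in the heterozygous and 0, 6, 13 and 11 in the wild-type libraries (adjusted p = 0.25 without the filter). Pcdha9 was even between the groups, with 4, 3, 11 and 9 read pairs against 6, 3, 14 and 5 in wild type. Pcdha3 was at 0 in the heterozygous libraries and had 12, 2, 1 and 1 read pairs in wild type. Most of its signal thus came from 1 library (adjusted p = 0.23 by edgeR without the filter). Without the filter 9 of the 10 alpha genes had a log2 difference below 0, as did 52.3% of all 31028 genes in that fit, and Pcdha2 was the exception. Pcdha3 and Pcdha12 had read pairs in wild type only, so only wild-type reads could bring them into the normalized table. The count of signs is therefore no separate support for a lower cluster. Of the 10 alpha genes, 4 had under 20 read pairs over all 8 libraries together.

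Leaving genes out of the alpha sum moved its size. Without Pcdha12 the sums were 0.956 to 1.39 CPM in the heterozygous and 1.55 to 2.87 CPM in the wild-type libraries, still without overlap, and the ratio was 1.81. Without Pcdhac2 it was 2.71. Without Pcdha12, Pcdha3 and Pcdhac1 together the sums overlapped and the ratio was 1.41. They were 0.956 to 1.31 CPM in the heterozygous and 0.970 to 2.31 CPM in the wild-type libraries. The 3 genes left out were picked with their values known. Wild-type replicate 3 had the highest alpha sum, and without it the ratio was 2.01. The same library stood apart in neuron markers, with Tubb3 at 62.0 CPM (13.8 to 18.6 in the other wild-type libraries), Prph at 48.7 CPM (3.25 to 9.23) and Stmn2 at 42.7 CPM (5.72 to 11.1). The summed neuron marker level was 476 to 546 CPM in the heterozygous libraries, 979 CPM in wild-type replicate 3 and between 662 and 765 CPM in wild-type replicates 1, 2 and 4. Of its 14 genes 3 were called lower (Nefl, Nefm and Snap25, edgeR) and 0 higher, beside 1.02% and 0.147% of all genes tested. Of the 14, 9 lay below 0, as did 50.5% of all genes tested. The median log2 difference of the 14 was -0.14, and none of them was at 0 in every library. Without Nefl, Nefm and Snap25 the sums overlapped, at 315 to 366 CPM in the heterozygous and 299 to 498 CPM in the wild-type libraries. These 3 were left out because they were called in these data, so overlap of the rest does not test neuron content. Hair cell markers summed to 646 to 802 CPM in the heterozygous and 746 to 860 CPM in the wild-type libraries, with 1 of 10 called lower (Otof). Of these 10 markers 8 lay below 0, with a median log2 difference of -0.24. The part of either cell type in the alpha difference was not tested.

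**Figure D5:**
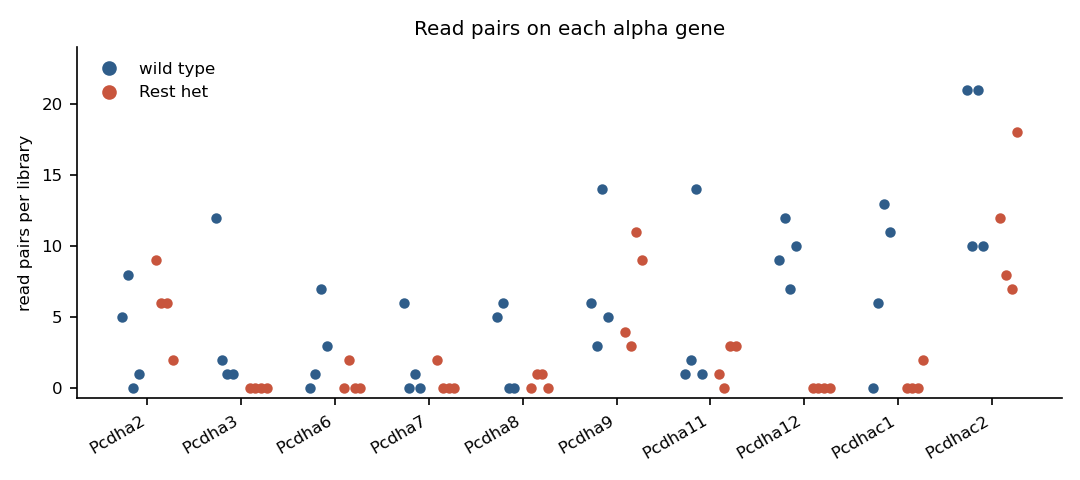
Read pairs per library (y axis, starting at 0) on each of the 10 alpha genes in wild-type (blue) and heterozygous (red) libraries. Pcdha12 has 7 to 12 read pairs in every wild-type library and 0 in every heterozygous one. Pcdha3 is also at 0 in every heterozygous library, with 1 to 12 read pairs in wild type, and all other alpha genes overlap.

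Genes around the clusters and in the same family gave a background for these values. The 9 of 10 neighbouring genes that could be tested included 0 called in either direction, with a median log2 difference of 0.040, among them Hdac3 at 151 to 185 CPM in the heterozygous and 134 to 159 CPM in the wild-type libraries. Of the 12 non-clustered protocadherins, which have no constant exons in common, 1 was called lower and 0 higher. Over all genes tested 1.02% were called lower and 0.147% higher. Below 0 lay 9 of the 12 genes (median -0.12), as did 50.5% of all genes tested. The gene called lower, Pcdh20, was at 81.2, 76.8, 94.0 and 82.6 CPM in the heterozygous and at 131.8, 127.1, 120.7 and 104.0 CPM in the wild-type libraries, without overlap. Its log2 difference was -0.53 with an adjusted p of 0.0187 (edgeR). The call was lost with the replicate block (adjusted p = 0.0783, log2 difference -0.53) and in 6 of the 8 fits without 1 library (0.0520 to 0.0720), while the log2 difference over all 8 fits ran from -0.60 to -0.48.

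None of the 19 genes that regulate chromatin at the clusters passed the test. Ctcf, which anchors the enhancer contacts, varied within both groups, from 40.1 to 79.3 CPM in the heterozygous and from 34.0 to 74.1 CPM in the wild-type libraries (log2 difference 0.30, adjusted p = 0.682 by edgeR). Smchd1, a repressor of the clusters, was at 39.1, 39.3, 32.3 and 35.7 CPM in the heterozygous and at 44.2, 45.2, 43.8 and 49.1 CPM in the wild-type libraries, without overlap. Its log2 difference of -0.32 had an adjusted p of 0.153 by edgeR and 0.0426 by DESeq2. Wapl, which releases cohesin from DNA, and the DNA methyltransferase Dnmt3a were the most abundant of the list, and both overlapped between genotypes. Among 15 partners and signalling genes of the clustered protocadherins 0 were called (median log2 difference 0.043). They include Marcks, a membrane protein that gamma protocadherin signalling keeps active, at 0.31 (adjusted p = 0.248), and Adam10, the protease that sheds their extracellular part, at 0.26 (adjusted p = 0.371, both by edgeR).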

How the data were processed

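RNA-seq libraries of mouse utricle (4 Rest heterozygous, 4 wild type) were analysed. Per the labels' protocols, cDNA from 200 to 300 ng of RNA was primed with oligo-dT, amplified in 12 PCR cycles, tagmented (125 pg) and read as pairs of 126 bases. Per the submitters' processing notes, STAR 2.5.2a, GRCm38.p4 and DESeq2 were used, and the annotation release is not given in the sources used here. The authors deposited raw counts of read pairs per gene (unstranded, and per strand), and a table of normalized counts, a signal made by the authors by dividing counts by a size factor, for 7 of the libraries (not wild-type replicate 4). Each library of that table was multiplied by the median ratio of its deposited counts to its table values. This gave whole reads for 100% of values (tolerance 0.001), equal to the counts. On those reads edgeR called 129 genes and 0 clustered protocadherins. Lines naming no gene (25.2% to 33.9% of read pairs) were left out.

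Unstranded counts were tested with edgeR 4.0.16 in R 4.3.3 (quasi-likelihood, TMM, filterByExpr with minimum count 10 and minimum total 15, no covariates), with Benjamini-Hochberg adjustment over 16990 genes and a threshold of 0.05. SEs were derived from the F statistic. Exon overlap was computed from GENCODE M21, not necessarily the authors' annotation. The code was tested on simulated data. Alternatives were DESeq2 1.42.0, RLE factors, no filter, a replicate block, leaving out each library and, added after seeing the data, summed strand columns, the authors' 7 libraries and unfiltered fits for Pcdha12. The members and gene lists were chosen with earlier results of these data known.

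Genes named with values were the C-type genes, the 3 highest per cluster by mean CPM, those with groups that do not overlap, and the largest log2 difference per cluster and direction. From other lists they were the called genes, otherwise the 2 most abundant, and always Rest, Ctcf and Smchd1. Other names were chosen after their values were seen. Marker lists for Schwann cells and glia, mesenchyme, melanocytes, endothelium, macrophages, supporting cells and red blood cells had 0 called genes. Replicate numbers did not pair the libraries, and that check stands with the alternatives.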

Additional observations from a re-analysis of the deposited data

Results flagged for a closer look

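Of 62 groups of 4 libraries checked for 1 library far from the rest, 4 held one, where chance gives about 1 in 20. The summed level of all clustered protocadherins in wild-type replicate 4 was 113.0 CPM, with wild-type replicates 1 to 3 between 131.1 and 133.8 CPM. Pcdhgc4 was lowest in the same library, at 4.12 CPM against 5.54 to 5.74 CPM. Pcdhac1 was at 0.0818 CPM in heterozygous replicate 4 and at 0 in the other heterozygous libraries, a difference of 2 read pairs. Rest was highest in heterozygous replicate 1, at 131.7 CPM against 124.6 to 125.8 CPM. The strand-specific columns, which the tests did not use, held reads for Pcdhga10 in every library, from 15 to 84 read pairs with both strands summed, where the unstranded column was at 0.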

How the results depend on the processing

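No clustered protocadherin was called in either direction by edgeR with TMM or RLE factors, by DESeq2, with the replicate block or with strands summed. The same held with any library left out (0 to 0 in both directions). The authors' 7 libraries also gave 0, but they hold the same counts as the fit without wild-type replicate 4. Without the filter on low counts 1 was called lower, Pcdha12, and the median log2 difference of alpha genes was -1.86, over 10 alpha genes in place of 1. Leaving out each library gave medians from -0.76 to -0.30 for alpha, -0.077 to 0.14 for beta and -0.21 to -0.066 for gamma genes. Replicate numbers did not pair the libraries (correlation of same-numbered deviations from -0.12 to 0.06, and 0 of 4 correlated best with their own number). With the replicate block 96 genes were called in place of 198, the medians were -0.49 for alpha, -0.0014 for beta and -0.16 for gamma genes, and 0 clustered genes were called. DESeq2 called 564 genes. Among the 24 genes named by rule and followed through these fits, single libraries turned the sign of 4, all uncalled and near 0. The cause was not tested, and the count does not cover the other clustered genes. The fits without 1 library ran from -0.19 to 0.052 for Pcdhb17 (above 0 without heterozygous replicate 1 or 4 or wild-type replicate 1 or 2), from -0.18 to 0.030 for Pcdhgb6 (above 0 without heterozygous replicate 1 or 2 or wild-type replicate 2), from -0.12 to 0.14 for Dnmt3a (below 0 without heterozygous replicate 2) and from -0.12 to 0.036 for Zmat2 (above 0 without heterozygous replicate 1 or wild-type replicate 1 or 2). Depth limits the alpha genes most, of which 4 had under 10 read pairs in every library.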
